A study of Homo sapiens with 4 samples.

Results

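The loops described here are the chromatin loops anchored at collagen genes of MDA-MB-231 cells. MDA-MB-231 is a human triple-negative breast cancer cell line, labelled WT, and all 4 libraries came from this single line. Hi-C, which ligates and sequences DNA ends that lie close together in the crosslinked nucleus, was run on cells given DMSO (vehicle) or 75 nM THZ1, a covalent inhibitor of the transcriptional and cell cycle kinase CDK7, for 48 h. There were 2 libraries in each condition, described by the submitters as technical replicates, so the spread between them may be technical only and every p-value below measures that spread. A member was any protein-coding gene of chromosomes 1 to 22 whose symbol is COL, a number, A and a number. A collagen loop was a loop of a library's list with at least 1 anchor on the body of a member extended by 10 kb to each side. These rules gave 42 genes of 19229, and 537 collagen loops of 77275 loops in the 4 lists together.

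Collagens are triple-helical proteins of the extracellular matrix. Fibrillar collagens build the fibrils of skin, bone and tumor stroma, FACIT collagens decorate those fibrils, network collagens form the sheets of basement membranes and related matrices, and a few collagens span the cell membrane. A chromatin loop is a pair of sites that meet more often than their neighborhood does. Many loops are held by cohesin and CTCF, and others join a promoter to an enhancer or to another promoter. Hi-C does not measure transcription, so whether a collagen gene was expressed was not read from these data.

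The letters CCA, any pair of bases, AGG, any base and GGC, a core of the kind found in binding sites of the insulator protein CTCF, were searched on both strands of the loop anchors. Sequences are printed for some of the tested loops with a match, 5′ to 3′ on the plus strand of GRCh37, with the matched letters in capitals. Matches on tested loops of COL21A1, COL16A1 and COL28A1 are not printed. The COL21A1 match lies in an intron of DST, on the far anchor of the 235 kb loop that was weaker with THZ1. The COL13A1 match, 1 of 2 on its anchor, lies between genes on the far anchor of a loop that was weaker with THZ1, the COL15A1 match in an intron of GALNT12 on the far anchor of another weaker loop, the COL8A2 match in an intron of COL8A2, and the COL4A2 match in an intron of COL4A2 on the anchor of a loop that joined COL4A1 and COL4A2.
COL13A1 far anchor, chr10:71404470-71404509: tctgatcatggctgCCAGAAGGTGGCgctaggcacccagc
COL15A1 far anchor, chr9:101610991-101611030: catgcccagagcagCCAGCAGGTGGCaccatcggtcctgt
COL8A2 anchor, chr1:36565362-36565401: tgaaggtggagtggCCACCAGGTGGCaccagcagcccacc
COL4A2 anchor, chr13:111062304-111062343: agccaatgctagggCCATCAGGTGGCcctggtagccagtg
The letters were on 14.9% and 13.4% of the 5 kb anchors of collagen loops in vehicle 1 and 2 and on 15.3% and 18.9% in THZ1 1 and 2. Over the 5 kb anchors of all loops the shares were 12.1%, 11.7%, 14.4% and 15.0% in the same order. Of the 23 collagen loops tested for strength, 0 had the letters on both anchors, so no pair of facing matches could be described.

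The other anchor of that COL13A1 loop covers the gene's start site. The stretch upstream of it is shown because this start site carried 11 of the gene's 22 loops over the libraries. It is the RefSeq promoter entry placed by exact match on the plus strand of GRCh37 at chr10:71561412-71561635, and it stops before the annotated 5′ end of the gene. Capitals mark the letters TATAAA, searched on both strands together with CCAAT, which was not in the window. The TATAAA match lies near the upstream end of the window, away from the annotated 5′ end of the gene. Whether it acts in the promoter was not tested.
COL13A1 promoter: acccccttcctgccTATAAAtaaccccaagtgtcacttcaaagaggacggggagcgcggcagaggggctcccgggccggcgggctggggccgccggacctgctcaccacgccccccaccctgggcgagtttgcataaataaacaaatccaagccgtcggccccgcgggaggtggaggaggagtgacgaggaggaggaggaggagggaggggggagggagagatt
TATAAA was found in 11.1% and CCAAT in 33.0% of 27305 RefSeq promoters over their 250 upstream bases.

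Collagen loops were fewer after THZ1. The lists held 146 and 160 of them in vehicle 1 and 2 and 121 and 110 in THZ1 1 and 2. Both THZ1 libraries lay below both vehicle libraries, with means of 115.5 ± 7.78 and 153 ± 9.90 loops (SD, n = 2), a log2 ratio of -0.41. With 2 libraries against 2 the exact two-sided permutation test cannot go below p = 0.333, which is the value it gave. Counting only loops with at least 20 observed contacts, the log2 ratio was -0.20 (exact permutation p = 0.667). All loops of the lists numbered 20768 and 24219 in vehicle and 17222 and 15066 with THZ1, a log2 ratio of -0.48. Collagen loops made up 0.703% and 0.661% of the lists in vehicle and 0.703% and 0.730% with THZ1, and these shares overlapped (exact permutation p = 0.667). Loop counts depend on sequencing depth, and the read depth of the libraries was not analysed here. The observed contacts summed over the collagen loops were 4536 and 5205 in vehicle and 4636 and 3980 with THZ1, so these sums overlapped.

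**Figure D1:**
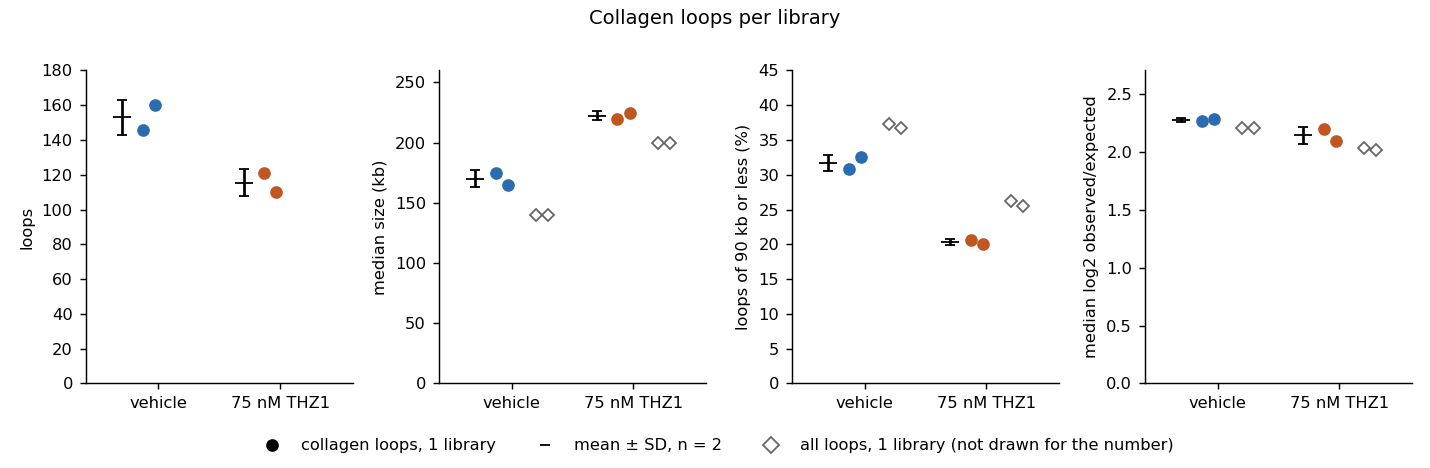
Collagen loops in each of the 4 libraries, with the number of loops, their median size in kb, the share of loops of 90 kb or less in percent and the median log2 of observed over expected contacts on the vertical axes. Filled circles are libraries, bars are the mean ± SD of 2 libraries, and open diamonds are the same measure over all loops. Diamonds are not drawn for the number of loops. The THZ1 libraries lie at 121 and 110 loops and the vehicle libraries at 146 and 160.

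A total of 37 of the 42 collagen genes had a loop in at least 1 library, or 88.1%, beside 81.3% of all protein-coding genes. Collagen genes are long, with a median of 133 kb against 27.6 kb for all protein-coding genes. Of genes at least as long as the median collagen gene, 85.7% of the 21 collagen genes and 91.8% of all 2486 such genes had a loop. Members with a loop numbered 35 and 34 in vehicle 1 and 2 and 33 and 31 in THZ1 1 and 2, and 30 members had one in every library. No loop was listed at COL11A1, a minor fibrillar chain of cartilage, COL5A3, COL20A1, COL6A5 or COL6A6. COL10A1, the collagen of hypertrophic cartilage, COL2A1, the main fibrillar collagen of cartilage, and COL22A1 had 1 loop in 1 library each.

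Of the 37 members with a loop, 13 (35.1%) had fewer loops in both THZ1 libraries than in both vehicle libraries and 0 had more. Across all genes with a loop, 26.9% had fewer by the same rule and 2.98% had more. These shares were not matched for gene length, and the median length of collagen genes is higher. The 13 were COL8A1, COL12A1, COL21A1, COL26A1, COL13A1, COL27A1, COL4A2, COL5A2, COL7A1, COL8A2, COL6A2, COL9A3 and COL9A2. The COL9A3 count turned on the 10 kb limit, as described below with the FACIT genes. COL5A1, COL16A1 and COL1A1 had the same number in all 4 libraries, which was 3 for COL5A1 and 2 for the others. In the remaining 21 members the conditions overlapped.

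**Figure D2:**
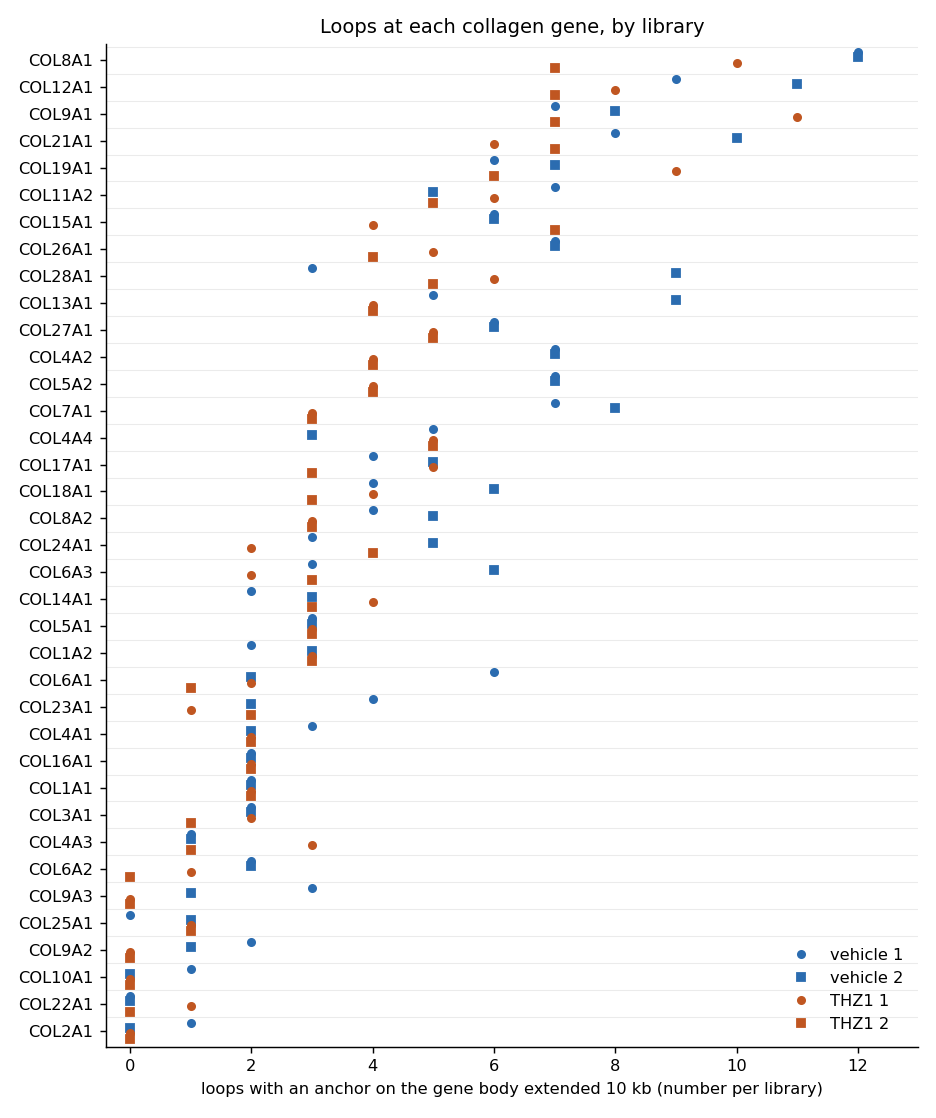
Number of loops at each of the 37 collagen genes with a loop (horizontal axis, loops per library), with 1 symbol for each library, vehicle in blue and THZ1 in orange. COL8A1 leads with 12 and 12 loops in vehicle and 10 and 7 with THZ1, and COL7A1 shows 7 and 8 against 3 and 3.

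FACIT collagens held the most loops of any class. The 10 FACIT genes had 35 and 38 loops in vehicle and 34 and 28 with THZ1, so both THZ1 libraries lay below both vehicle libraries, 1 of them by a single loop. COL12A1, which binds type I collagen fibrils, had 9 and 11 loops in vehicle and 8 and 7 with THZ1. COL21A1, another FACIT chain, had 8 and 10 loops in vehicle and 6 and 7 with THZ1, so both genes lay lower in both THZ1 libraries. COL9A1, a chain of the FACIT collagen that coats type II fibrils in cartilage, had 7 and 8 loops in vehicle and 11 and 7 with THZ1. COL19A1, its neighbor on chromosome 6, had 6 and 7 loops in vehicle and 9 and 6 with THZ1. The COL9A1 and COL19A1 counts overlapped between conditions, and since 8 of their loops over the libraries combined touched both extended genes, they are partly the same loops. COL14A1, a FACIT collagen of dense connective tissue, had 2 and 3 loops in vehicle and 4 and 3 with THZ1. COL9A2 had 2 and 1 loops in vehicle and COL9A3 3 and 1, and both were without a loop in the THZ1 libraries. For COL9A3 this turned on the 10 kb limit. Combined over the libraries, loops of about 555 and 445 kb ending near COL9A3 were called in all 4. Their anchors lay on the extended gene in vehicle libraries only.

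Fibrillar collagens came next, with 33 and 33 loops over 11 genes in vehicle and 27 and 27 with THZ1. COL5A2, a chain of the type V collagen that sets fibril diameter, had 7 and 7 loops in vehicle and 4 and 4 with THZ1. COL27A1, a fibrillar collagen of cartilage, had 6 and 6 loops against 5 and 5. COL11A2, a cartilage chain within the gene-dense major histocompatibility region, had 7 and 5 loops in vehicle and 6 and 5 with THZ1. COL24A1 had 3 and 5 loops in vehicle and 2 and 4 with THZ1, and like COL11A2 it overlapped between conditions. The chains of type I collagen, the most abundant collagen of connective tissue, had few loops. COL1A1 had 2 in every library, and COL1A2 had 2 and 3 in vehicle and 3 and 3 with THZ1. COL2A1 had 1 loop, in vehicle 1.

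The network collagens COL8A1, COL8A2 and COL10A1 together had 17 and 17 loops in vehicle and 13 and 10 with THZ1. COL8A1, a short-chain collagen of vascular and corneal matrices, had the most loops of any member, 12 and 12 in vehicle and 10 and 7 with THZ1. COL4A2, a chain of the basement membrane collagen, had 7 and 7 loops in vehicle and 4 and 4 with THZ1, whereas all 4 basement membrane genes together had 12 and 10 against 10 and 9. COL7A1, which forms the anchoring fibrils of skin, had 7 and 8 loops in vehicle and 3 and 3 with THZ1. The beaded filament genes of type VI collagen had 9 and 9 loops in vehicle and 4 and 4 with THZ1. All of these counts except the basement membrane total lay apart between the conditions. The numbers of all loops lay apart too. Of all genes with a loop, 26.9% had fewer in both THZ1 libraries than in both vehicle libraries. Within the beaded filament total, COL6A1 and COL6A3 taken singly overlapped between conditions.

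The membrane-spanning collagens had 13 and 17 loops in vehicle and 11 and 10 with THZ1. COL13A1, a transmembrane collagen of cell contacts, had 5 and 9 loops in vehicle and 4 and 4 with THZ1. COL17A1, the hemidesmosome collagen, had 4 and 5 against 5 and 3, and COL23A1 had 4 and 2 against 1 and 2. The multiplexins COL15A1 and COL18A1, whose carboxy-terminal fragments can inhibit blood vessel growth, overlapped between conditions. COL15A1 had 6 and 6 loops in vehicle and 4 and 7 with THZ1. COL18A1 had 4 and 6 against 4 and 3. COL26A1 had 7 and 7 loops in vehicle and 5 and 4 with THZ1, lower in both THZ1 libraries. COL28A1 had 3 and 9 loops in vehicle and 6 and 5 with THZ1, so its THZ1 counts lay between those of the vehicle libraries. The members not given one by one, COL3A1, COL4A1, COL4A3, COL4A4, COL6A1, COL6A2, COL6A3, COL8A2 and COL25A1, had 0 to 6 loops in a library.

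Collagen loops had larger medians in both THZ1 libraries. The median distance between anchors was 175 and 165 kb in vehicle and 220 and 225 kb with THZ1, and the groups did not overlap (exact permutation p = 0.333). The difference of the group means, 52.5 kb, was 7.5 kb with 10 kb anchors only. All loops had medians of 140 and 140 kb against 200 and 200 kb. Loops of 90 kb or less made up 30.8% and 32.5% of collagen loops in vehicle and 20.7% and 20.0% with THZ1, beside 37.3% and 36.8% against 26.2% and 25.5% of all loops. In numbers, collagen loops of this size were 45 and 52 in vehicle and 25 and 22 with THZ1, a log2 ratio of -1.05. Collagen loops above 90 kb numbered 101 and 108 in vehicle and 96 and 88 with THZ1, a log2 ratio of -0.18, and these too did not overlap.

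By finer size classes the log2 ratio of the THZ1 mean to the vehicle mean was -0.91 for collagen loops of up to 50 kb and -1.18 for those over 50 and up to 90 kb. All loops had -1.16 and -0.84 in these classes. The ratio was -0.34 over 90 to 200 kb and -0.29 over 200 to 500 kb for collagen loops, beside -0.52 and -0.23 for all loops. Collagen loops over 500 kb and up to 1000 kb numbered 17 and 24 in vehicle and 25 and 19 with THZ1, and those over 1000 kb 10 and 9 against 10 and 10. In these last 2 classes the conditions overlapped.

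**Figure D3:**
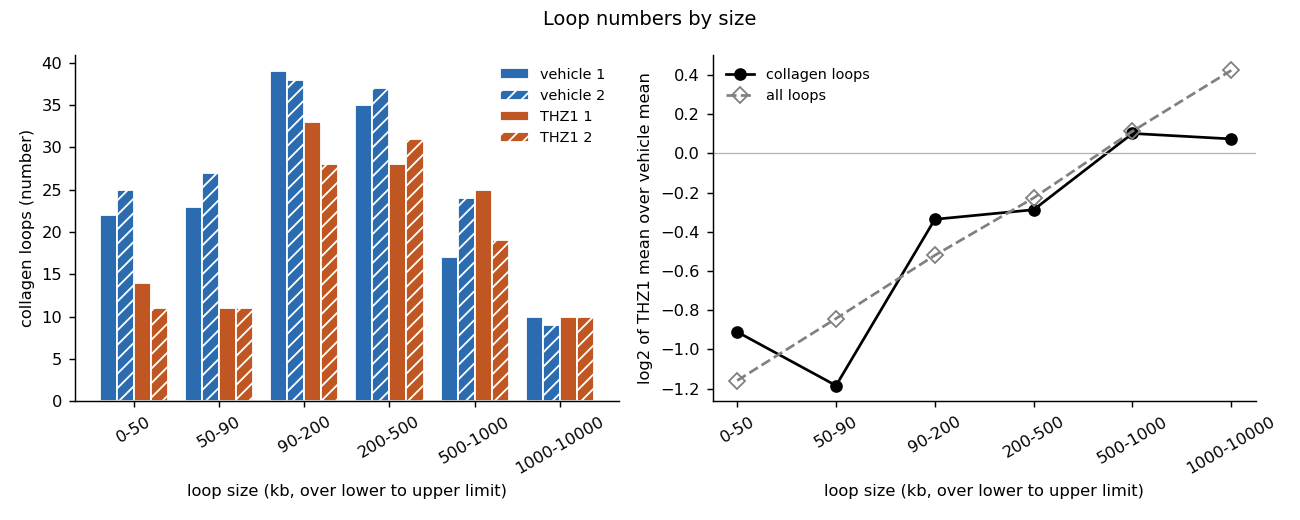
Left, collagen loops per library (vertical axis, number) in 6 size classes in kb. Right, log2 of the THZ1 mean over the vehicle mean in each class for collagen loops (filled circles) and all loops (open diamonds), which is -0.91 at up to 50 kb and 0.07 at over 1000 kb for collagen loops and -1.16 and 0.42 for all loops.

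Loop sizes differed between the members. COL7A1 had 4 and 6 loops of 90 kb or less in vehicle and 1 and 2 with THZ1. COL8A1 had 1 and 1 in vehicle and 0 and 0 with THZ1, and the median size of its loops was 240 and 240 kb in vehicle and 610 and 625 kb with THZ1. COL26A1 had median sizes of 200 and 340 kb in vehicle and 690 and 480 kb with THZ1. Not every member had larger medians with THZ1. COL6A3, with at most 6 loops in a library, had 240 and 175 kb in vehicle and 152.5 and 150 kb with THZ1. COL11A2 had 75 and 50 kb against 67.5 and 50 kb. COL12A1 loops were long in every library, with medians of 800 and 800 kb in vehicle and 958 and 1110 kb with THZ1.

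Start sites were uneven among collagen loop anchors. A collagen gene's own start site lay on an anchor of 31 and 35 collagen loops in vehicle and 25 and 20 with THZ1, or 21.2%, 21.9%, 20.7% and 18.2%. Over the 4 libraries, 15 members had their start site on an anchor. For COL12A1 this held for 31 of 35 loops, and all 31 ran downstream from the start site, 2 of them to a site within the gene and the others past its end, up to 1530 kb away. COL8A1 had its start site on 18 of 41 loops, of which 16 ran upstream. COL5A1 had 9 of 12 loops on its start site, all 9 upstream, COL13A1 11 of 22, with 9 upstream, and COL1A1 8 of 8, with 6 upstream. COL21A1 had 31 loops, none on its start site.

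For COL12A1, 6 loops were called in all 4 libraries when loops with both anchor midpoints within 20 kb were joined across libraries. Their sizes were 308, 600, 1115, 1240, 1350 and 1470 kb, and each joined the COL12A1 start site or the bin beside it to a downstream site. The longest reached the body of CD109, a cell surface protein gene, and the others reached no protein-coding gene. The only COL12A1 loop confined to vehicle in both libraries ran inside the gene over 110 kb, with 15 and 40 observed contacts. Joined loops can differ in anchor width between libraries, so such counts are not always comparable.

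**Figure D4:**
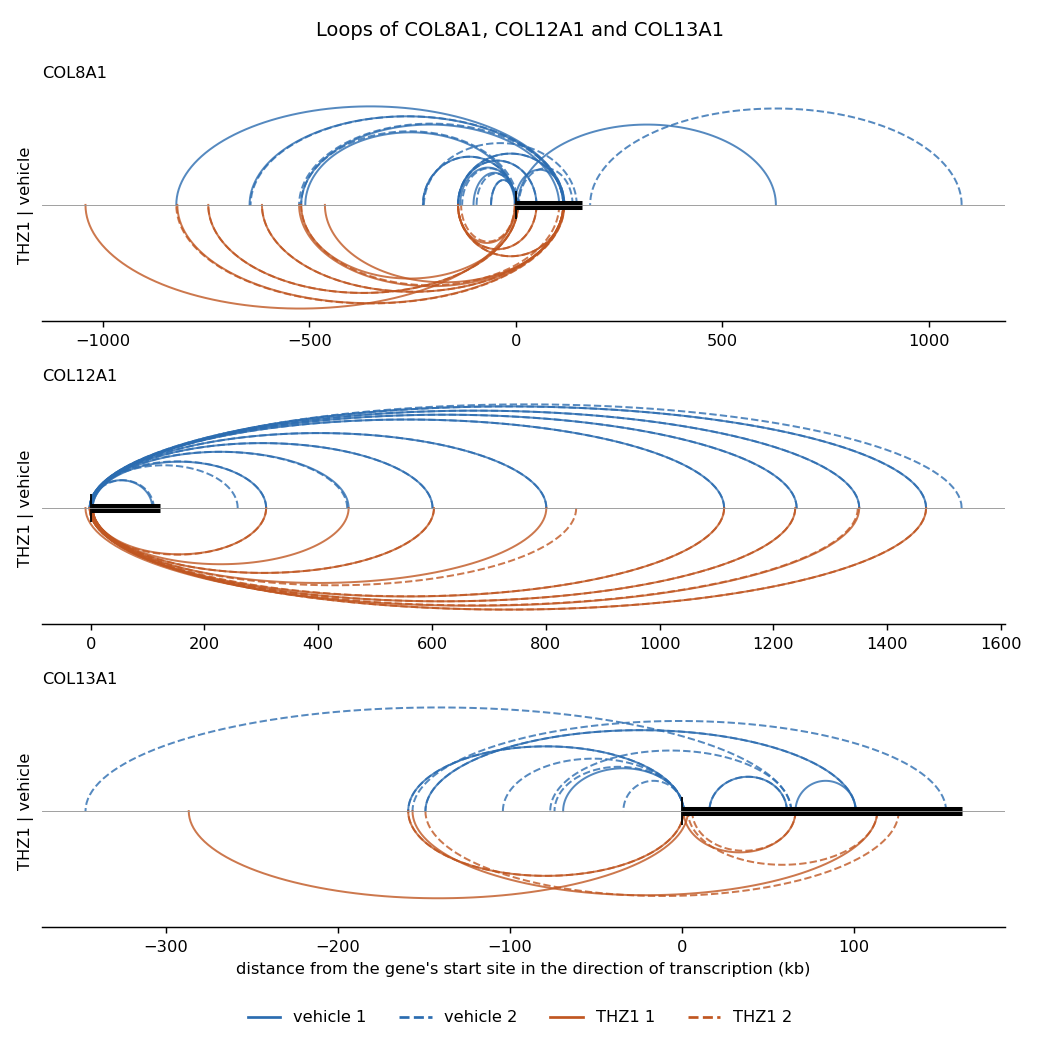
Loops of COL8A1, COL12A1 and COL13A1 as arcs between anchor midpoints, by distance from the gene's start site in the direction of transcription (kb), vehicle above the line and THZ1 below it, with solid lines for library 1, dashed lines for library 2 and a black bar for the gene. COL12A1 arcs fan out downstream from the start site in all 4 libraries to 1470 kb, while most arcs from the COL8A1 start site run upstream.

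Partners of collagen loops were sorted by what lay on the other anchor, a measure computed after the loop counts had been seen. The start site of another protein-coding gene was there in 35 and 35 collagen loops in vehicle and 18 and 17 with THZ1, which was 24.0% and 21.9% against 14.9% and 15.5% of collagen loops (exact permutation p = 0.333, groups not overlapping). Loops with both anchors at the same collagen gene numbered 25 and 22 against 16 and 16. They made up 17.1% and 13.8% of collagen loops in vehicle and 13.2% and 14.5% with THZ1, and the conditions overlapped (exact permutation p = 0.667). Loops to no protein-coding gene numbered 50 and 57 in vehicle and 48 and 42 with THZ1, and loops to the body of another gene 31 and 42 against 35 and 32. A start site on either anchor was present in 43.8%, 41.9%, 34.7% and 32.7% of collagen loops in the order vehicle 1 and 2, THZ1 1 and 2, beside 43.7%, 43.97%, 38.3% and 38.7% of all loops.

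Loops between a pair of collagen genes numbered 5 and 4 in vehicle and 4 and 3 with THZ1. COL4A1 and COL4A2, which lie head to head on chromosome 13 and encode chains of the same basement membrane trimer, were joined in every library by loops of about 190 kb and 223 kb between the bodies of the genes. The first had 26 and 20 observed contacts in vehicle and 35 and 28 with THZ1. COL4A3 and COL4A4, the corresponding pair on chromosome 2, were joined in every library by a 110 kb loop. It had 19 and 25 observed contacts in vehicle and 26 and 14 with THZ1. The anchor width of that loop was not held equal between libraries. COL6A1 and COL6A2 on chromosome 21 were joined at their flanks over 170 kb in vehicle 1, vehicle 2 and THZ1 1, with 20, 27 and 23 observed contacts. The 3 pairs thus kept such a loop in 4, 4 and 3 of the libraries.

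Joining across libraries gave 232 collagen loops. Of these, 69 (29.7%) were called in all 4 libraries, where the share over all 33552 joined loops was 26.1%. Loops listed in vehicle 1 and vehicle 2 alone numbered 19 (8.19%), beside 9.67% of all joined loops. They had a median size of 72.5 kb and came from 13 genes. Loops listed in THZ1 1 and THZ1 2 alone numbered 6 (2.59%), beside 2.24% of all, with a median size of 480 kb. A loop missing from a list was not called there, which does not show that its contacts were gone. Observed contacts of a joined loop can come from different anchor widths in different libraries and are then not comparable. The counts moved with the libraries that had to agree: without vehicle 1, vehicle 2, THZ1 1 or THZ1 2, vehicle-only collagen loops numbered 53, 46, 36 and 24 and THZ1-only ones 11, 12, 20 and 21.

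Of the vehicle-only collagen loops, 5 were at COL8A1. Of these, 3 joined its start site to upstream sites at 60 kb, with 37 and 39 observed contacts, at 97.5 kb, with 57 and 39, and at 225 kb, with 24 and 27. A loop of about 125 kb, with 39 and 25 contacts, ran within the gene, from the anchor with the start site in vehicle 1 and from the bin beside it in vehicle 2. The remaining loop joined the gene body to a site 760 kb away, with 15 and 28 contacts. Both THZ1-only loops of COL8A1 were long. A 750 kb loop joined its start site to that of DCBLD2, a transmembrane receptor gene, with 69 and 68 observed contacts at 25 kb anchors, and a 730 kb loop from the gene body had 26 and 23.

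COL7A1 had 2 vehicle-only loops on chromosome 3. The 40 kb loop from its start site to the start site of SLC26A6, an anion exchanger gene, had 31 and 37 observed contacts, and a 47.5 kb loop from the region of PFKFB4, a regulator of glycolysis, to that of SHISA5 had 25 and 27. A 35 kb loop from the COL7A1 start site to the region beyond its end, where PFKFB4 and UCN2 lie, was called in all 4 libraries with 26, 46, 34 and 28 observed contacts. A loop of about 105 kb from that region to the one of ATRIP and TREX1, genes of DNA damage signaling and DNA degradation, was called in all 4 libraries too.

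COL1A1 had 1 vehicle-only and 1 THZ1-only loop, while its number of loops was 2 in every library. In vehicle a 50 kb loop joined the COL1A1 start site to that of PPP1R9B, which encodes the actin-binding scaffold spinophilin, with 27 observed contacts at 5 kb anchors in vehicle 1 and 59 at 10 kb anchors in vehicle 2. With THZ1 a loop of about 97.5 kb ran from the start site to the other side of the gene, where no protein-coding gene lies, with 120 contacts at 10 kb anchors in THZ1 1 and 59 at 5 kb anchors in THZ1 2. The third COL1A1 loop, 70 kb to the start site of TMEM92, was called in all 4 libraries.

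The other vehicle-only loops included a loop from the COL9A2 body to the start site of ZMPSTE24, with 45 and 20 observed contacts. ZMPSTE24 is the protease that matures lamin A. A loop of 140 kb from the COL24A1 body to the start site of ZNHIT6 had 33 and 28. A 180 kb loop between that body and the ZNHIT6 region was called in vehicle 2, THZ1 1 and THZ1 2. A further loop of 310 kb between them was called in THZ1 2. Another vehicle-only loop joined the COL23A1 body to the start site of the zinc finger gene ZNF354A over 450 kb, with 14 and 14. COL21A1 had 2, both into DST, the gene of the cytoskeletal linker dystonin, with 175 and 38 and with 41 and 44 observed contacts. The pairs of values from different anchor widths, such as 175 and 38, are not comparable with each other. COL13A1, COL5A2, COL18A1, COL12A1, COL27A1 and COL2A1 had 1 each, of 40 to 110 kb. That of COL2A1 lay between VDR and TMEM106C, and its anchor was within 10 kb of COL2A1 in vehicle 1 only. The remaining THZ1-only loops joined COL19A1 to LMBRD1 over 270 kb, COL26A1 to CUX1 over 690 kb and COL14A1 to DEPTOR over 100 kb. DEPTOR encodes an inhibitor of mTOR. In that order the loops had 16 and 29, 33 and 32, and 32 and 30 observed contacts. These pairs also had loops in all 4 libraries, over 375 kb for LMBRD1, 270 and 730 kb for CUX1 and 215 kb for DEPTOR. The partner genes were thus not particular to THZ1.

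Loop strength was the ratio of the contacts observed at a loop to those expected from the surrounding ring of pixels (the donut). Over the collagen loops called in each library the median log2 ratio was 2.26 and 2.28 in vehicle and 2.19 and 2.09 with THZ1, and the groups did not overlap (exact permutation p = 0.333). With 5 kb anchors only, the difference was 0.017 in the other direction. Relative to the median of all other loops of the same library, collagen loops stood 0.06 and 0.08 higher on the log2 scale in vehicle and 0.16 and 0.08 higher with THZ1, and these overlapped (exact permutation p = 0.667). Within sizes of 90 kb or less the collagen medians were 1.96 and 1.95 against 1.75 and 1.79. Above 90 kb they were 2.53 and 2.50 against 2.30 and 2.26, so THZ1 lay lower in both size groups. Over all loops of any size the medians were 2.20 and 2.20 against 2.03 and 2.01, also lower with THZ1. The strength of all loops was not split by size. The median number of observed contacts per collagen loop was 26 and 27 in vehicle and 31 and 30 with THZ1, while the median expected number was 4.97 and 5.13 against 6.58 and 6.70.

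Strength could be compared loop by loop for 23 collagen loops that had identical anchors in all 4 lists. Of these, 5 (21.7%) were weaker with THZ1 and 0 stronger in edgeR's quasi-likelihood test with Benjamini-Hochberg adjustment over all 2623 loops tested, and 7 collagen loops had an unadjusted p below 0.05. Over all tested loops, 24.7% were weaker and 0.0762% stronger. The median fitted log2 change was -0.37 for the collagen loops and -0.41 for all. In 18 of the 23 collagen loops both THZ1 ratios lay below both vehicle ratios, which held for 68.7% of all tested loops. With a single library left out, whether vehicle 1, vehicle 2, THZ1 1 or THZ1 2, the test called 0 collagen loops weaker, with 4 to 8 at an unadjusted p below 0.05, and DESeq2 also called 0, with 3 at an unadjusted p below 0.05. Each of these fits called 0 of all 2623 loops weaker, so the 0 was not particular to collagen loops.

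The COL21A1 loop of 235 kb between the gene body, chr6:56220001-56225000, and an intronic site of DST, chr6:56455001-56460000, had the largest fitted change among the 23 loops with identical anchors. Its observed over expected ratio was 11.9 and 15.4 in vehicle and 8.17 and 7.27 with THZ1, a log2 change of -0.82 ± 0.21 (SE; adjusted p = 0.0165, edgeR quasi-likelihood with Benjamini-Hochberg). Its observed contacts were 59 and 78 against 74 and 63, and the expected ones 4.98 and 5.06 against 9.06 and 8.67. The observed contacts thus overlapped and the expected ones did not. The second COL21A1 loop, of 310 kb, had ratios of 18.97 and 21.3 in vehicle and 17.0 and 16.8 with THZ1 and an adjusted p of 0.354 in the same edgeR test.

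The COL1A1 loop to TMEM92, chr17:48275001-48280000 to chr17:48345001-48350000, had ratios of 9.14 and 8.11 in vehicle and 5.41 and 4.96 with THZ1. The log2 change was -0.73 ± 0.20 (SE; adjusted p = 0.0209, edgeR quasi-likelihood with Benjamini-Hochberg). Its observed contacts were 85 and 99 in vehicle and 70 and 55 with THZ1, lower in both THZ1 libraries. The COL1A2 loops did not pass the test. The 150 kb loop around that gene had ratios of 14.9 and 12.8 in vehicle and 8.96 and 9.31 with THZ1 (adjusted p = 0.0989, edgeR quasi-likelihood), and the 110 kb loop 5.97 and 8.36 against 5.01 and 5.95.

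The COL13A1 loop of 160 kb joined the start site whose promoter is printed above, in chr10:71560001-71565000, to the intergenic anchor chr10:71400001-71405000. Its ratio was 14.3 and 15.5 in vehicle and 9.60 and 9.01 with THZ1, a log2 change of -0.68 ± 0.18 (SE; adjusted p = 0.0189, edgeR quasi-likelihood with Benjamini-Hochberg). Observed contacts were 46 and 64 in vehicle and 38 and 38 with THZ1. The COL17A1 loop of 75 kb to the start site of SFR1, a recombination gene, had ratios of 9.65 and 10.1 against 6.72 and 5.87 and a log2 change of -0.65 ± 0.14 (SE; adjusted p = 0.00875, same edgeR test). The COL15A1 loop of 150 kb to an intron of GALNT12, a glycosyltransferase gene, had ratios of 8.84 and 11.2 against 7.83 and 6.17 and a log2 change of -0.53 ± 0.19 (SE; adjusted p = 0.0492, same edgeR test). In all 3 loops both THZ1 ratios lay below both vehicle ratios.

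Fitted changes above 0 were found for 3 collagen loops, and none passed the test. The 1470 kb COL12A1 loop to CD109 had ratios of 9.30 and 10.2 in vehicle and 11.1 and 9.92 with THZ1, a log2 change of 0.11 ± 0.24 (SE; adjusted p = 0.808, edgeR quasi-likelihood with Benjamini-Hochberg). The 135 kb COL18A1 loop had ratios of 5.20 and 7.31 against 5.63 and 7.92, and the 190 kb loop between COL4A1 and COL4A2 had 9.11 and 5.51 against 8.14 and 6.86. In each of them the libraries of the conditions overlapped, as they did for a COL28A1 loop of 120 kb and a COL8A2 loop of 185 kb.

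**Figure D5:**
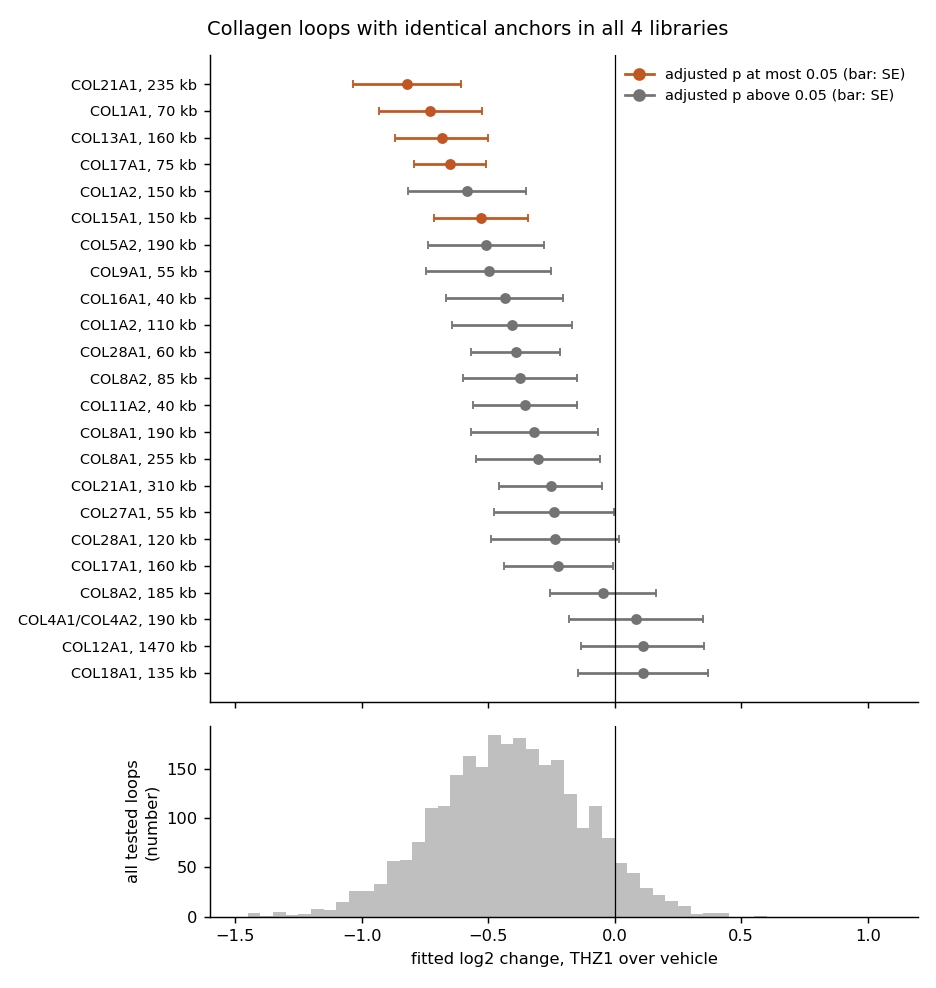
Upper panel, fitted log2 change of observed over expected contacts, THZ1 over vehicle (horizontal axis), for the 23 collagen loops with identical anchors in all 4 libraries, with bars for the SE and orange for an adjusted p of at most 0.05. Lower panel, the same change for all 2623 tested loops; the collagen values run from -0.82 to 0.11, with a median of -0.37 beside -0.41 for all.

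The change of the ratio was split into its parts. Over the 23 collagen loops the median log2 change of the observed contacts was 0.16 and that of the expected contacts 0.44. Over all tested loops they were -0.014 and 0.40. Tested on the observed contacts alone with TMM normalization, 2 of the 23 collagen loops were lower and 1 higher at the edgeR quasi-likelihood threshold with Benjamini-Hochberg adjustment, beside 4.35% lower and 2.78% higher of all 2623 loops. The median fitted change was 0.18 for the collagen loops and -0.0047 for all. The direction of the median for collagen loops therefore depended on whether the surroundings were divided out.

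Genes that modify, export, cleave, cross-link, bind or degrade collagen were counted in the same way. Of 47 such genes, 44 had a loop. Of these, 15 (34.1%) had fewer in both THZ1 libraries than in both vehicle libraries and 0 had more. Of all genes, 26.9% and 2.98% did, as given above, and these shares too were not matched for gene length. The most loops were at P3H2, a collagen prolyl hydroxylase, with 11 and 11 in vehicle and 9 and 10 with THZ1. The integrin subunit genes ITGA1 and ITGA2, which encode collagen-binding chains, had 6 and 7 against 6 and 8 and 5 and 9 against 7 and 5, and both overlapped. ITGB1, their common partner chain, had 6 and 7 against 5 and 5. P4HA2, a subunit of the enzyme that hydroxylates proline in collagen, had 6 and 7 against 4 and 3. Loops were absent from the lists at ADAMTS2, the procollagen amino-propeptidase, MMP1, the interstitial collagenase, and SERPINH1, the collagen chaperone HSP47.

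Of 15 tested loops at these genes, 4 were weaker and 0 stronger by the edgeR quasi-likelihood test with Benjamini-Hochberg adjustment, beside 24.7% and 0.0762% of all tested loops. The 50 kb loop at DDR1, a collagen receptor kinase, had ratios of 8.80 and 11.5 in vehicle and 5.47 and 4.77 with THZ1, a log2 change of -0.98 ± 0.21 (SE; adjusted p = 0.00803). The 150 kb loop between ITGA1 and ITGA2 had ratios of 13.6 and 13.7 against 7.94 and 8.20, with a log2 change of -0.76 (adjusted p = 0.00987). The ITGB1 loop of 215 kb had 16.5 and 13.9 against 8.79 and 9.22 (adjusted p = 0.0207), and an MMP2 loop of 240 kb, at the gelatinase gene, 35.6 and 44.9 against 25.2 and 28.6 (adjusted p = 0.0452). All 4 lay lower in both THZ1 libraries.

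Contact domains at collagen genes, which the choice of loops did not use, were more numerous with THZ1. Domains with a boundary within 20 kb of an extended collagen gene numbered 15 and 17 in vehicle and 26 and 28 with THZ1, a log2 ratio of 0.75 with groups that did not overlap (exact permutation p = 0.333). All domains numbered 1198 and 1398 in vehicle and 2477 and 2345 with THZ1. The higher number at collagen genes thus stood beside a higher number of domain calls over the whole genome.

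The submitters also deposited tables of loops unique to each condition. Of 989 vehicle-unique loops, 3 (0.303%) touched a collagen gene, beside 0.703% and 0.661% of the lists of vehicle 1 and 2. They were 1 between the COL21A1 body and a site within 10 kb of the gene and 2 at COL26A1. Of 177 THZ1-unique loops 0 touched a collagen gene, beside 0.703% and 0.730% of the lists of THZ1 1 and 2. The COL21A1 loop of 55 kb was among the joined loops of vehicle 1 and THZ1 2, and the COL26A1 loops of 80 and 50 kb were in no library's own list.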

How the data were processed

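Hi-C of MDA-MB-231 cells was measured in 2 vehicle and 2 THZ1 libraries. The authors processed the reads with Juicer 1.6 on hg19 (per the submitters' processing notes) and deposited, for each library, a list of loops with 5, 10 or 25 kb anchors. Each loop carries its observed contact count, the expected contact signal in 4 neighborhoods and a q-value for each, all deposited by the authors. The lists were used as given, with no filter. A deposited list of contact domains for each library and the condition-unique loop tables were used for counts only. The read depth is not given in these lists, so intervals from depth were not computed.

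The members, gene lists and rules were chosen with earlier results of these data known. Genes came from GENCODE lifted to GRCh37, which is the build of the files (0 of 61322 anchors lay beyond a chromosome end). Loop size was the distance between anchor starts. Loops were joined across libraries when both anchor midpoints lay within 20 kb. A start site was counted as on an anchor when it lay inside it. Values per library were compared by exact two-sided permutation tests over the 6 splits of 4 libraries. Strength was tested with edgeR 4.0.16 in R 4.3.3 (quasi-likelihood F-test on observed contact counts with the logarithm of the donut expectation as offset, all 4 libraries, Benjamini-Hochberg over 2623 loops, threshold 0.05), and 1 further loop with identical anchors was left out for an expectation of 0. Tested on simulated data with 200 loops changed 2-fold up or down at random, the fit recovered 61.5% with 4 false calls. The other simulated loops were unchanged, whereas the median change over all tested loops of the data was -0.41. The false calls of the simulation therefore do not give the error of the calls in the data. DESeq2 1.42.0, other expected neighborhoods, TMM on the observed contacts, gene extensions, anchor widths, a stricter q-value, a minimum of 20 contacts, other matching distances and leaving out each library were tried as alternatives. Deviations of same-numbered libraries from their group means did not correlate (r = -0.0088 over the tested loops), so the replicate numbers were not taken to pair the libraries. Named genes were the 12 members with the most loops, members with a loop in both libraries of a single condition only, members with a tested loop past the threshold, members without a loop, the 5 biosynthesis genes with the most loops and those with a tested loop past the threshold. Python 3.11.15 was used with numpy 2.4.6, pandas 2.3.3, scipy 1.17.1 and matplotlib 3.10.9.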

Additional observations from a re-analysis of the deposited data

How the results depend on the processing

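Of 164 alternative values over 14 results, 140 were labelled the same, 9 turned and 15 moved further. For the values per library, domains included, the same meant only an unchanged sign, whatever the size. Counts of condition-only, weaker or stronger loops had to stay within 1.5 times the main count. The median fitted change had to stay within the mean SE. The difference in the share of collagen loops among all loops, 0.0345 percentage points, became -0.0234 with start sites in place of gene bodies and -0.215 with 10 kb anchors. The difference in genes with a loop, -2.5, became 0.5 with 25 kb extensions. Without a change of sign, the difference in median size, 52.5 kb, became 7.5 kb with 10 kb anchors. With at least 20 observed contacts, the log2 ratio of loop numbers, -0.41, became -0.20, and the difference in median log2 strength became -0.024. The difference in median log2 strength, -0.13, became 0.017 with 5 kb anchors, and that relative to other loops, 0.046, became -0.012 with 5 kb and -0.038 with 10 kb anchors. The difference in the share of loops within a gene, -1.55 percentage points, became 0.393 with 10 kb anchors and ran from -3.24 to 0.134 when a single library was left out, and it had no value for start sites. Vehicle-only loops numbered 11 with 50 kb matching and from 24 to 53 without a single library, and THZ1-only loops from 11 to 21. On observed contacts alone with TMM, edgeR called 2 collagen loops weaker and 1 stronger, beside 114 and 73 of all 2623, and the median fitted change turned to 0.18. DESeq2 called 0 weaker among collagen and all loops, as did edgeR without any single library (0 to 0), where the lone library of a condition was assumed to vary like the other condition's. The cause of these shifts was not tested.

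With the replicate block, edgeR called 5 collagen loops weaker and 0 stronger, beside 749 of all 2623 weaker (28.6%) in place of 648 (24.7%), and the log2 ratio of loop numbers within pairs was -0.41 (exact sign-flip p = 0.5, the smallest that 2 pairs allow). The other results fitted with it kept their direction.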
